A study of Mus musculus with 6 samples.

Results

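Long non-coding RNA (lncRNA) features of RAW264.7 cells, a mouse macrophage line, are described here, 3 of 24817 features in the deposited table: NONMMUT026427.2 and NONMMUT026433.2 on chromosome 16 and NONMMUT056500.2 on chromosome 6. They were chosen by identifier, with earlier results of these data known, as features at the loci of the interferon-induced genes Parp14 and Parp12 that were lower in cells kept in extract of enoxaparin cement. Their difference between the groups is therefore a description and not a test. All cells received lipopolysaccharide (LPS) for 24 h before they were moved to medium conditioned by bone cement of polymethyl methacrylate (PMMA). In the LPS_ES_PMMA group (3 libraries) the cement held enoxaparin sodium, a low-molecular-weight heparin. In the LPS_PMMA group (3 libraries) it did not, by the titles and treatment labels, whereas the descriptions of those libraries name LPS alone. A single cell line was used. No label says whether replicate libraries are separate cultures, so p-values below measure a spread that may be technical.

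Enzymes of the PARP family transfer ADP-ribose from NAD+ to proteins and nucleic acids, either as single units or as chains. PARP14, which carries macrodomains that bind ADP-ribose, and PARP12, which carries CCCH zinc fingers, add single units, and type I interferon induces both genes. PARP14 is also known as a partner of STAT6 in the response to interleukin-4, and PARP12 as a restrictor of RNA viruses. Macrophages given LPS make type I interferon and raise such genes in turn.

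Where the features lie depends on how their positions are read. The submitters' processing notes name build mm10, and the listed positions were compared with the GENCODE M21 annotation of that build. NONMMUT026433.2 (chr16:35866179-35867951, 1773 nt) lies inside Parp14 (chr16:35832874-35871544, minus strand) and is listed as sense to it. It has the same ends as Gm49730, a model of the class TEC that still awaits experimental evidence, and 110 of its bases fall in a coding exon of Parp14. NONMMUT026427.2 (chr16:35689073-35693373, 4301 nt) overlaps no gene of M21. It lies 689 bp beyond the 3' end of Dirc2 (Slc49a4), which encodes a lysosomal membrane transporter, and the table relates it to that gene. NONMMUT056500.2 (chr6:39063877-39066094, 1376 nt in a span of 2218 bp) lies in an intron of Tbxas1, the thromboxane A synthase gene, and is listed as antisense to it. M21 has the antisense gene 1700025N23Rik there, with 822 exon bases inside the span of the feature. As listed, then, 1 of the 3 features lies in a PARP gene, and none overlaps Parp12 (chr6:39086410-39118349).

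Transcripts that the authors assembled (MSTRG) gave another reading of the same positions. Among the 9 assembled transcripts in the 10 Mb stretch of chromosome 6 that holds the feature, 7 had an end that met an end of an M21 transcript at a shift of about -23100 bp (listed minus M21 position, bins of 100 bp), against 3 at the next most frequent shift, and 0 met one without a shift. On chromosome 16 the stretch around the other features gave 5 of 15 at about -179600 bp, against 4 at the next, so this value is thinly supported, and again 0 met one without a shift. The most frequent exact shifts in those bins were -23066 bp (3 transcripts) and -179638 bp (2 transcripts). A sequence name of the table, MU069435.1, which holds 2 features, does not occur in the M21 annotation of the primary assembly. Moved to higher positions so as to undo these shifts, NONMMUT026427.2 would overlap the first exon of Parp14 (378 exon bases, 187 of them coding). The whole span of NONMMUT056500.2, introns included, would overlap the 3' part of Parp12 (850 exon bases, 475 of them coding). NONMMUT026433.2 would leave Parp14 and meet 109 coding bases of Fam162a, a mitochondrial protein gene. Reading the listed positions with the shift therefore exchanges which of the chromosome 16 features lies in Parp14. Which reading holds for the reads counted was not tested, and models of the GRCm39 build were not used here.

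**Figure D1:**
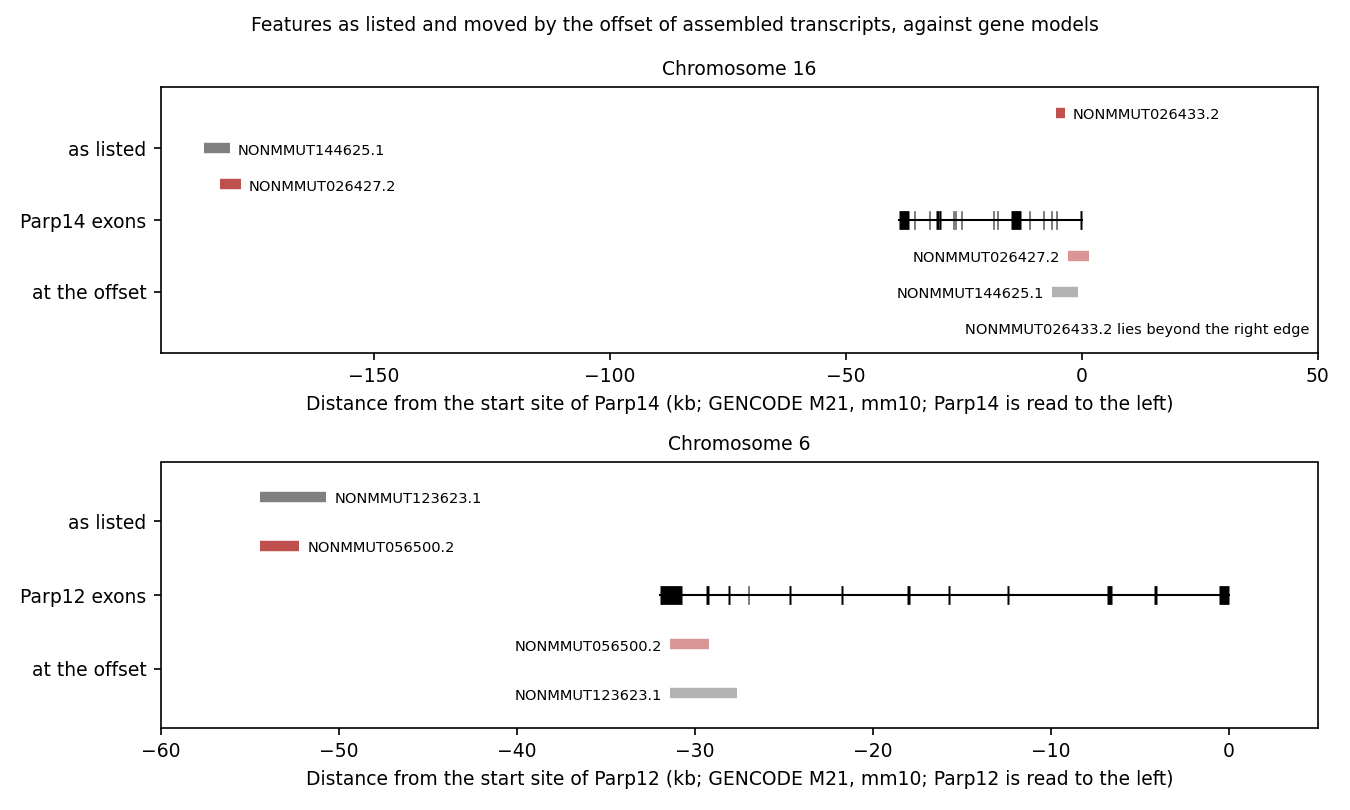
Positions of the features against the exons of Parp14 (top) and Parp12 (bottom), as distance in kb from the start site of each gene. Features above the exons are placed as listed and those below are moved to undo the shift of assembled transcripts (listed minus M21, -179638 and -23066 bp), red for the 3 features described and grey for features that overlap them. Drawn as whole spans, NONMMUT026427.2 and NONMMUT056500.2 meet exons of Parp14 and Parp12 only in the lower rows.

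The stretches that these readings turn on are shown from the M21 transcripts, all from the minus strand of mm10 and written 5' to 3'. The first is the 3' end of NONMMUT026433.2 as listed (chr16:35866179-35866478), with the Parp14 exon in capitals. The second is a stretch of 300 of the 822 exon bases of 1700025N23Rik within the span of NONMMUT056500.2 as listed (spliced, chr6:39064400-39065866), with the middle of the 3 exons shown in capitals. The third is a stretch of 300 of the 475 coding bases of Parp12 that the span of NONMMUT056500.2 would meet after the shift (spliced, chr6:39087493-39089129), with the upstream of the 2 exons in capitals. That stretch belongs to the C-terminal catalytic region. The last is the coding part of the first exon of Parp14 that NONMMUT026427.2 would meet (chr16:35871167-35871353), with the start codon in capitals.
NONMMUT026433.2: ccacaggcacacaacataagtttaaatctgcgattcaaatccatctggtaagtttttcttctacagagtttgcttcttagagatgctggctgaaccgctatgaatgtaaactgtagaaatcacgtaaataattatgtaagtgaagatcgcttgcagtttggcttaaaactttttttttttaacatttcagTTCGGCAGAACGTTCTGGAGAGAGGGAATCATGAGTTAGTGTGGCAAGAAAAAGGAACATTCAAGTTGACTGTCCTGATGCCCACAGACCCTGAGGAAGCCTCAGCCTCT
NONMMUT056500.2, as listed: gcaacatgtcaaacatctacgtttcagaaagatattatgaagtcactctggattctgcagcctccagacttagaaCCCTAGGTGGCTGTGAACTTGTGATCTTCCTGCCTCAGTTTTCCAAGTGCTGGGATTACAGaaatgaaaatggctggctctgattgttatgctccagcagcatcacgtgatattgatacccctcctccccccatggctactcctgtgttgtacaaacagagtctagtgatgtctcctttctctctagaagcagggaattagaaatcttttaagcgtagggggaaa
Parp12, at the offset: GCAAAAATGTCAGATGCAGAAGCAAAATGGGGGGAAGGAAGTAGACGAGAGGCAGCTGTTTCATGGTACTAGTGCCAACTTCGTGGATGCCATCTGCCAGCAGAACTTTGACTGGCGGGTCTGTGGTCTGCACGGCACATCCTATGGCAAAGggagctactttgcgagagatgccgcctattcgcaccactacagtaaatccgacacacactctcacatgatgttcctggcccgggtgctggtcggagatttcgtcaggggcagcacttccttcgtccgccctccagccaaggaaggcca
Parp14, at the offset: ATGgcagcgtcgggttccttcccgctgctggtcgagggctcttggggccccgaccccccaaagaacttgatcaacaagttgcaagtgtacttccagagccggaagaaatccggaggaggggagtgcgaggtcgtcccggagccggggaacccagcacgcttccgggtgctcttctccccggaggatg

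Libraries held 1123551 (LPS_ES_PMMA 2) to 3697638 (LPS_PMMA 1) counts over all features, and the 5 most abundant features took 51.4% to 78.2% of them. Scaling factors by TMM, a trimmed mean of ratios that corrects for such dominance, ran from 0.983 to 1.82 over the LPS_ES_PMMA libraries, against 0.559 to 0.977 for LPS_PMMA. They thus moved with the groups, and values under other scalings are given below. Values called CPM below are counts per 1000000 TMM-scaled counts, and 3 counts in 1 library equal 0.729 to 1.52 CPM. Of 9 features tied to 5 of 8 macrophage genes, 3 were tested and none passed (0 also at an unadjusted p under 0.05 in edgeR). Their median log2 fold change was 0.53, with 1 of the 3 below 0. NONMMUT010436.2 and NONMMUT140491.1, listed as antisense to Eif4a1 and Mpdu1, were tied to the macrophage gene Cd68 only by a position within 10 kb. They stood at 0.53 and 0.58. MSTRG.25685.1, listed as antisense to the macrophage surface gene Adgre1, stood at -0.55. The 5 features tied to genes of other cell types (T cell, fibroblast, epithelium) held too few counts to be tested. The table lists lncRNAs, and no feature of it that stands for a marker mRNA or for Parp12 or Parp14 mRNA was analysed here. NONMMUT026433.2 as listed is sense to Parp14 and shares 110 bases with a coding exon, so its counts may include reads of Parp14 RNA. If the shifted positions hold for the reads, counts of each described feature may include reads of protein-coding exons. Neither was tested.

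NONMMUT056500.2 was the most abundant of the features, with a mean of 79.2 FPKM over the 6 libraries (fragments per kilobase per 1000000 reads), above 96.9% of the 8873 features tested. It held 706, 700 and 841 counts in LPS_PMMA 1, 2 and 3, and 171, 95 and 146 in LPS_ES_PMMA 1, 2 and 3. The same libraries held 347, 276 and 304 CPM against 41.5, 48.1 and 49.2 CPM. Libraries of a group lay close together, and the highest LPS_ES_PMMA library was far below the lowest LPS_PMMA library. LPS_ES_PMMA lay wholly below LPS_PMMA in 14.6% of tested features. The means were 308.7 ± 36.1 CPM (SD, n = 3) and 46.3 ± 4.15 CPM (SD, n = 3), a level 6.67-fold higher in LPS_PMMA. In such bulk samples, fewer cells that hold an RNA and less of it per cell cannot be told apart. On the FPKM scale, which takes library totals from the authors, the feature held 114.6, 122.6 and 157.8 in LPS_PMMA and 27.6, 27.9 and 24.6 in LPS_ES_PMMA.

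NONMMUT026427.2 was less abundant, with a mean of 2.26 FPKM, above 25.3% of tested features. It held 70, 73 and 76 counts in LPS_PMMA 1, 2 and 3, and 5, 7 and 7 in LPS_ES_PMMA 1, 2 and 3. In CPM these were 34.4, 28.7 and 27.4 against 1.21, 3.55 and 2.36. The LPS_PMMA libraries were even, whereas the LPS_ES_PMMA libraries differed 2.92-fold among themselves at 5 to 7 counts each, and the groups did not overlap. The means were 30.2 ± 3.71 CPM (SD, n = 3) and 2.37 ± 1.17 CPM (SD, n = 3), 12.7-fold higher in LPS_PMMA. Of the 3 features, it differed by the largest fold on this scale.

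NONMMUT026433.2, the one that lies in Parp14 as listed, had a mean of 9.35 FPKM, above 74.2% of tested features. It held 67, 89 and 100 counts in LPS_PMMA 1, 2 and 3, and 57, 28 and 57 in LPS_ES_PMMA 1, 2 and 3. The raw counts of LPS_PMMA 1 and of LPS_ES_PMMA 1 and 3 were thus within 10 of each other. Scaled to CPM, the libraries held 32.9, 35.0 and 36.1 against 13.8, 14.2 and 19.2, and on that scale the groups did not overlap. The means were 34.7 ± 1.61 CPM (SD, n = 3) and 15.7 ± 3.00 CPM (SD, n = 3), 2.2-fold higher in LPS_PMMA. On the FPKM scale it held 8.44, 12.1 and 14.6 in LPS_PMMA and 7.15, 6.37 and 7.46 in LPS_ES_PMMA, with a narrower gap.

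**Figure D2:**
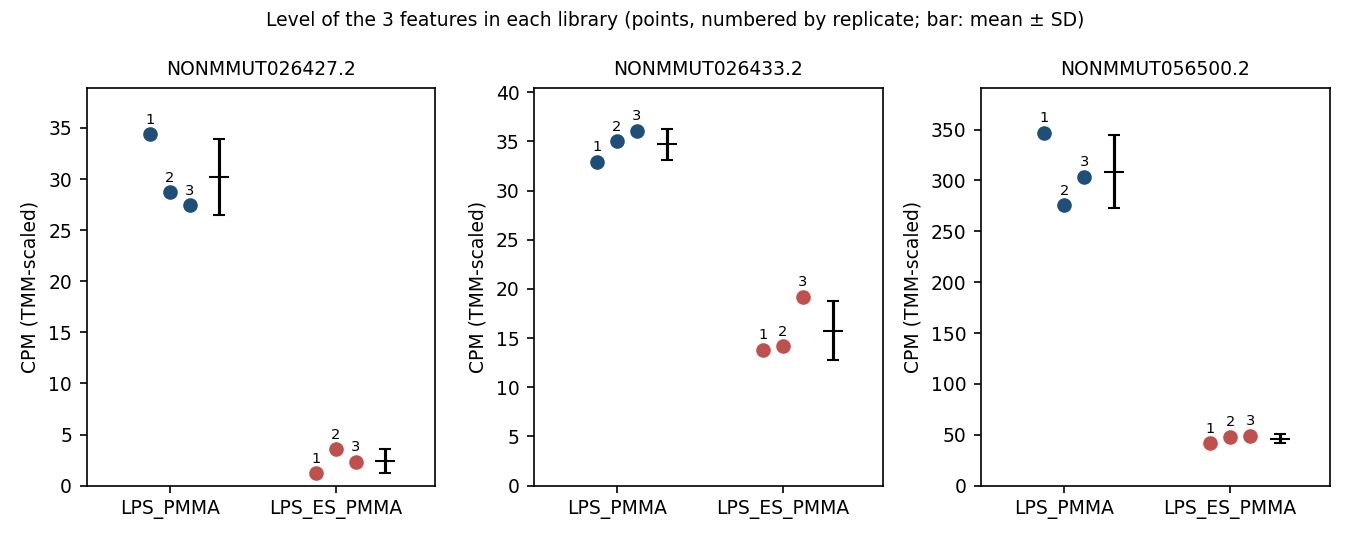
Level of each of the 3 features in each library, in CPM from 0 (TMM-scaled counts), with points numbered by replicate and bars for the mean ± SD of 3 libraries. Every LPS_ES_PMMA library lies below every LPS_PMMA library in all 3 panels, by the widest ratio for NONMMUT026427.2 (2.37 against 30.2 CPM).

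In the edgeR quasi-likelihood fit across all features, the log2 fold change of LPS_ES_PMMA over LPS_PMMA was -3.73 (approximate SE 0.40) for NONMMUT026427.2, -2.74 (SE 0.24) for NONMMUT056500.2 and -1.14 (SE 0.25) for NONMMUT026433.2. All 3 features passed an adjusted p of 0.05 there, but they were chosen as lower in these same data, so nothing is read from that count. Of all tested features 4.76% passed, 2.58% lower and 2.18% higher in LPS_ES_PMMA, and the median log2 fold change was 0.03. Groups that did not overlap, LPS_ES_PMMA being the lower, made up 14.6% as given above, and all 3 features were among them. In the authors' deposited table the log2 ratio of the groups was -3.25, -2.30 and -0.74 in the same order, and NONMMUT026433.2 was not called (q = 0.274 there).

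The features differed in how their values held under other processing. NONMMUT026427.2 and NONMMUT056500.2 passed in each of 6 leave-one-out fits (1 library removed in turn) and in 9 of 9 other settings. NONMMUT026433.2 passed in 0 of 6 and in 1 of 9, the robust form of the edgeR fit. Its log2 fold change was -0.41 with column totals in place of TMM, and -0.74 with the library totals implied by FPKM. Those scalings moved the median of all tested features to 0.80 and 0.45. A change of scaling shifts all features by about the same amount. A similar distance from that median was therefore fixed in advance, and nothing is read from it.

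**Figure D3:**
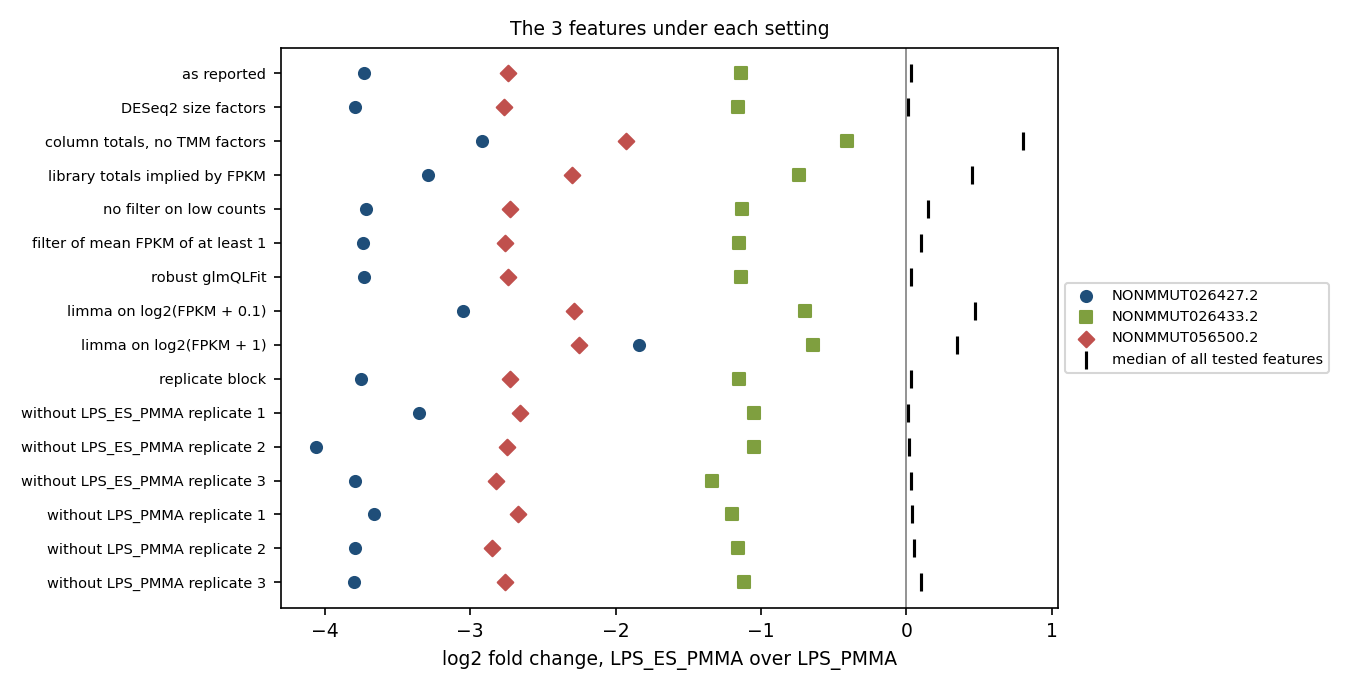
Log2 fold change of LPS_ES_PMMA over LPS_PMMA for each of the 3 features (symbols) under each setting (rows), with the median of all tested features as a black bar. All values of the 3 features lie below 0, from -4.06 to -0.41, and NONMMUT026433.2 lies nearest to 0 in each row.

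Other features of the 2 loci show how far the differences extended. Within 250 kb of the described features the table listed 41 others, of which 13 had enough counts to be tested; 2 fell and 0 rose by edgeR (0 rose at an unadjusted p under 0.05, where 3 fell). DESeq2 called the same numbers, 2 lower and 0 higher, and limma on log2(FPKM + 1) called 1 of each. Both that fell are on chromosome 16, where 5 were tested, and none of the 8 tested on chromosome 6 passed (0 at an unadjusted p under 0.05). Of all tested features, 2.58% were called lower and 2.18% higher. The median log2 fold change of the 13 was 0.39, and 0.03 over all tested features.

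NONMMUT144625.1 (chr16:35685695-35691032) overlaps NONMMUT026427.2 by 1960 bp as listed, so both may hold the same reads. It held 122, 138 and 118 counts in LPS_PMMA 1, 2 and 3, and 13, 20 and 16 in LPS_ES_PMMA 1, 2 and 3, with no overlap. In CPM this was 52.3 ± 8.86 (SD, n = 3) against 6.23 ± 3.56 (SD, n = 3), or -3.11 ± 0.44 (approximate SE) on the log2 scale (edgeR, adjusted p = 0.0139). Its call was lost without LPS_ES_PMMA 1, without LPS_ES_PMMA 3 and without LPS_PMMA 2 (-3.59 to -2.76 over the 6 leave-one-out fits), with column totals and with a replicate block. Per length it stood 1.25 to 1.52 times as high as NONMMUT026427.2 in LPS_PMMA libraries and 1.84 to 2.30 times in LPS_ES_PMMA libraries. After the shift it would cover 364 exon bases of Parp14, 140 of them coding.

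NONMMUT026429.2 and NONMMUT026430.2 lie in an intron of Hspbap1, a gene for a protein that binds a small heat shock protein, as listed. After the shift both would lie in an intron of Parp9, whose product pairs with the ubiquitin ligase DTX3L in the interferon response. NONMMUT026429.2 held 10, 27 and 27 counts in LPS_PMMA and 9, 5 and 5 in LPS_ES_PMMA, in replicate order. It fell from 8.43 ± 3.08 (SD, n = 3) to 2.13 ± 0.427 CPM (SD, n = 3), or -1.99 ± 0.44 (SE) on the log2 scale (edgeR, adjusted p = 0.0449). That call was lost in each of the 6 leave-one-out fits (-2.28 to -1.83) and held in 2 of 9 other settings. It was lost with column totals, under both other filters, in both limma fits and with a replicate block. With totals implied by FPKM the feature was not tested. NONMMUT026430.2 held 9, 15 and 15 counts against 5, 8 and 4 and did not pass (log2 fold change -1.37, adjusted p from edgeR = 0.184).

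The next tested features to the right did not pass. MSTRG.22370.1, an intergenic transcript 25962 bp from NONMMUT026433.2, held 70.5 CPM in LPS_PMMA and 92.3 in LPS_ES_PMMA (log2 fold change 0.39, adjusted p from edgeR = 0.445). MSTRG.22344.1, tied to the nuclear import gene Kpna1 as listed, had a log2 fold change of -0.47 (adjusted p from edgeR = 0.591). After the shift MSTRG.22370.1 would overlap Ccdc58 without meeting its exons. The whole span of MSTRG.22344.1, introns included, would then overlap 1862 exon bases of Gm5483, 291 of them coding. On chromosome 16 the lower values thus lay to the left by listed position (-3.73 to -1.37 in the 4 features there), NONMMUT026433.2 (-1.14) came next, and the 2 tested features to its right did not pass.

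On chromosome 6 NONMMUT056500.2 stood alone among the tested features. NONMMUT123623.1 starts at the same base, covers the same interval and runs on to 39067629. It held 5, 7 and 14 counts in LPS_PMMA and 7, 4 and 6 in LPS_ES_PMMA, too few to be tested, and 3.42 against 1.92 CPM on average. With the shift undone its whole span, introns included, would overlap 1347 exon bases of Parp12, 606 of them coding. The transcript itself is 1086 nt long, and the overlap of its own exons was not computed. Per length, NONMMUT056500.2 stood 47.4 to 111 times as high as NONMMUT123623.1 in LPS_PMMA libraries and 18.7 to 19.3 times in LPS_ES_PMMA libraries. The 3 nearest tested features were ENSMUST00000202943 (0.44 on the log2 scale), which lies within 10 kb of Parp12 as listed, NONMMUT056509.2 (0.85) and NONMMUT056511.2 (0.60), the last 2 on the histone demethylase gene Kdm7a. None of them passed, with adjusted p from edgeR of 0.668, 0.472 and 0.467. NONMMUT123662.1, the most abundant feature near the far edge of the window, held 141 CPM in LPS_PMMA and 135 in LPS_ES_PMMA (log2 fold change -0.06, adjusted p from edgeR = 0.909).

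**Figure D4:**
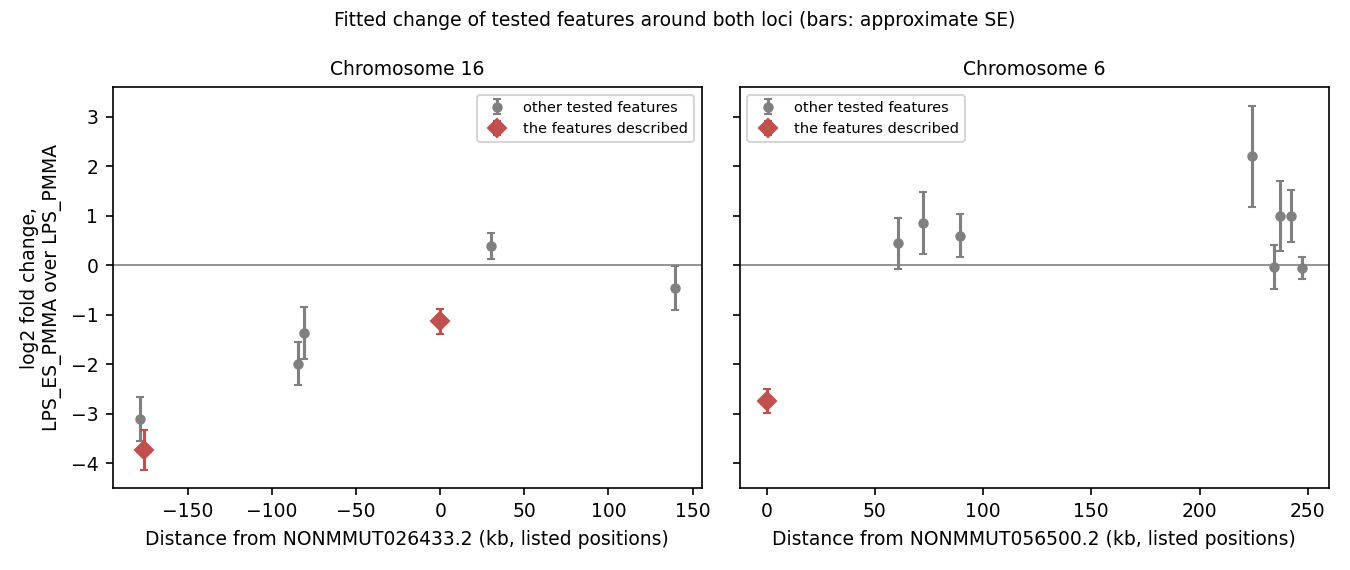
Fitted log2 fold change of LPS_ES_PMMA over LPS_PMMA, with approximate SE, of tested features by listed distance in kb from NONMMUT026433.2 (left) and NONMMUT056500.2 (right). On chromosome 16 features to the left lie at -3.73 to -1.37, whereas on chromosome 6 NONMMUT056500.2 (-2.74) is apart from 8 features between -0.06 and 2.20.

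The loci of the wider PARP family were read from 16 genes, to which features were tied by the gene the table names or, unless assembled by the authors, by a listed position within 10 kb. No shift was applied to these ties, and some would change with it, as given above for Parp9, Parp12 and Parp14. Whether the counted reads belong to the tied genes was not tested. Of 28 features tied to 9 of these genes, 12 were tested, of which 3 fell, 0 rose and 9 did not pass (at an unadjusted p under 0.05 in edgeR, 3 were lower and 1 higher). Of all tested features 2.58% were called lower and 2.18% higher, and 21.9% had an unadjusted p under 0.05 in either direction. NONMMUT026433.2 is one of the 3, and it was chosen for that difference. The others are MSTRG.48225.3, tied to Parp11, an interferon-induced enzyme that adds single ADP-ribose units, and NONMMUT034596.2, tied to Tnks2, a tankyrase that builds ADP-ribose chains. The median log2 fold change of the 12 was -0.18, with 6 below 0. It was -0.22 with DESeq2 (2 fell), but above 0 with column totals (0.62, 0 fell) and with totals implied by FPKM (0.29, 1 fell). Each of these medians lay below that of all tested features, but the 12 include NONMMUT026433.2, chosen as lower. With it left out, the middle value in the edgeR fit was 0.19 (NONMMUT034594.2, tied to Tnks2), above the 0.03 of all tested features. No position of the family relative to all features is therefore read from these medians.

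MSTRG.48225.3 held 63, 62 and 79 counts in LPS_PMMA 1, 2 and 3, and 21, 16 and 22 in LPS_ES_PMMA 1, 2 and 3. It fell from 27.96 ± 3.32 (SD, n = 3) to 6.87 ± 1.57 CPM (SD, n = 3), with no overlap of the groups, or -2.04 ± 0.29 (SE) on the log2 scale (edgeR, adjusted p = 0.0145). Without LPS_ES_PMMA 1, LPS_ES_PMMA 3, LPS_PMMA 2 or LPS_PMMA 3 it did not pass (-2.16 to -1.84 over the 6 leave-one-out fits), nor with column totals (-1.24) or a replicate block. NONMMUT034596.2 held 20, 26 and 22 counts against 10, 4 and 8. It fell by 1.93 ± 0.35 (SE) on the log2 scale (edgeR, adjusted p = 0.0257). The call held in none of the 6 leave-one-out fits and in 3 of 9 other settings.

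The remaining features of the family did not pass. NONMMUT056441.2, tied to Zc3hav1, the gene of the zinc finger antiviral protein, held 19.2 CPM in LPS_PMMA and 12.9 in LPS_ES_PMMA, or -0.59 ± 0.30 (SE) on the log2 scale (edgeR, adjusted p = 0.302). MSTRG.20114.1, tied to Parp10, held 6.19 and 2.48 CPM in the same order, or -1.29 ± 0.57 (SE) on the log2 scale (edgeR, adjusted p = 0.239). NONMMUT132743.1, on the endoplasmic reticulum enzyme gene Parp16, held 3.02 and 4.21 CPM in the same order, or 0.51 ± 0.53 (SE) on the log2 scale (edgeR, adjusted p = 0.617). Dtx3l and Parp9 had no feature over them as listed. Of genes for partners and removers of ADP-ribosylation (9 genes, 15 features), 2 features were tested and 0 passed by edgeR, DESeq2 or limma (0 at an unadjusted p under 0.05). NONMMUT020285.2, near Parg, the gene of the enzyme that cuts ADP-ribose chains, held 48.4 CPM in LPS_PMMA and 50.6 in LPS_ES_PMMA.

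**Figure D5:**
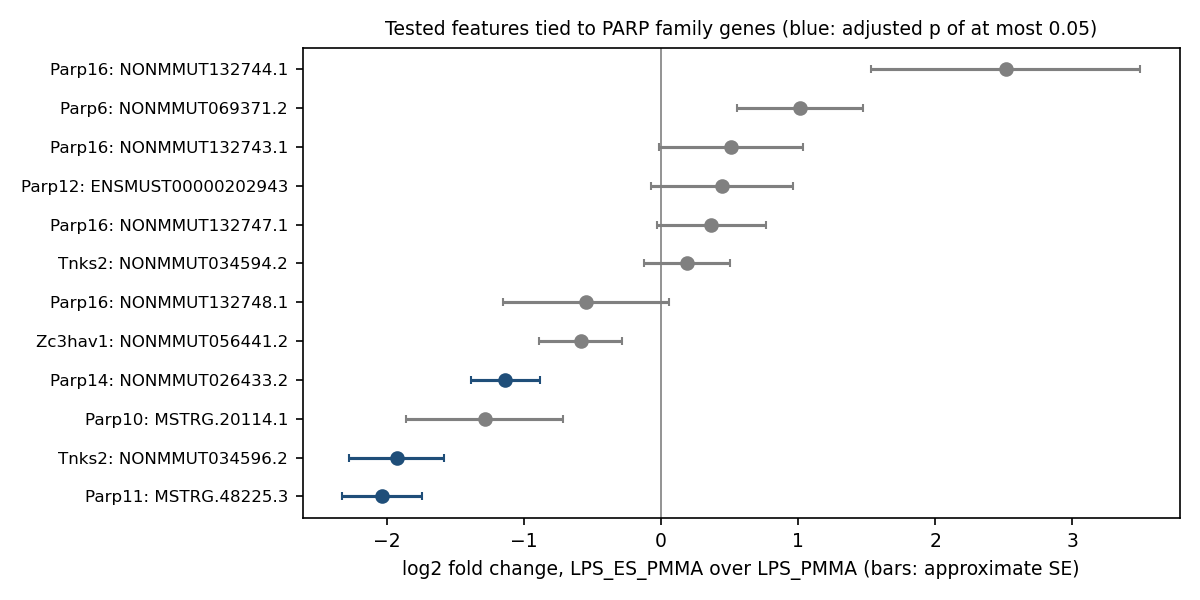
Log2 fold change of LPS_ES_PMMA over LPS_PMMA, with approximate SE, of the 12 tested features tied to PARP family genes, blue where adjusted p was at most 0.05. The features of Parp11, Tnks2 and Parp14 passed, at -2.04, -1.93 and -1.14, and the highest value, 2.51 for NONMMUT132744.1 (Parp16), did not.

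Beside the PARP genes, interferon and RIG-I pathway genes (54 genes) had 40 features, tied to 21 of these genes, and 15 of the features were tested. In the edgeR fit 4 of the 15 fell, 3 rose and 8 were not called, the same numbers under each of 3 other scalings, with a median log2 fold change of 0.18. The shares over all tested features were 2.58% lower and 2.18% higher. Those that fell were NONMMUT148390.1 near Isg15, the gene of a ubiquitin-like modifier (-3.47), NONMMUT034527.2 (-4.31) at Ifit1bl2, and MSTRG.29280.1 (-6.35) and MSTRG.29277.1 (-4.62) at Ifit2. Ifit1bl2 and Ifit2 are of the Ifit family of RNA-binding antiviral proteins. NONMMUT148390.1 is listed as sense to AW011738 and was tied to Isg15 only by a position within 10 kb. NONMMUT148389.1, listed with Isg15 as its gene, was higher in LPS_ES_PMMA (7, 2 and 16 counts against 0, 2 and 0 in LPS_PMMA). It held too few counts to be tested. Those that rose were NONMMUT106142.1 (2.98) and NONMMUT106143.1 (2.18) near Ifit1 and NONMMUT150657.1 (2.04) at Usp18, whose product removes ISG15. The called features at or near Ifit genes lie together on chromosome 19, from 34547699 (MSTRG.29277.1) to 34659688 (NONMMUT106143.1). Most of the 7 calls thus come from a single stretch. These ties too were made without a shift, so the gene named for a feature may not be the source of its reads. Adjusted p of these 7 in edgeR ran from 0.00279 to 0.0265. NONMMUT148390.1 and NONMMUT034527.2 passed in 6 of 6 leave-one-out fits, and the other 5 lost their calls without LPS_ES_PMMA 1, LPS_ES_PMMA 3 or LPS_PMMA 2. MSTRG.29277.1, NONMMUT106142.1 and NONMMUT106143.1 also lost theirs without LPS_ES_PMMA 2 and LPS_PMMA 1, and NONMMUT150657.1 without LPS_PMMA 3. The 3 most abundant of the list by FPKM were NONMMUT099242.1, an intergenic feature near Ifnar1, MSTRG.3412.1 at Ifi204 and MSTRG.6909.1 at Stat2. They did not pass (0.12, -0.89 and 0.32 on the log2 scale, with edgeR adjusted p = 0.863, 0.211 and 0.621).

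The features whose pattern over the 6 libraries was most like each described feature were found by Pearson's r of log2(CPM + 1) among 6523 tested features with a mean of at least 5 CPM. All share the same 6 libraries, and since the groups stand apart, r mostly reflects a difference between the groups; between 328 and 396 of the 6523 had r above 0.9. For NONMMUT026427.2 they were NONMMUT117699.1 (r = 0.998), MSTRG.48225.3 (0.996), the feature tied to Parp11, and MSTRG.45298.1 (0.996). For NONMMUT056500.2 they were NONMMUT148390.1 (r = 0.998), listed as sense to AW011738 and lying near Isg15, NONMMUT117693.1 (0.998) and NONMMUT032074.2 (0.998). For NONMMUT026433.2 they were ENSMUST00000137598 (r = 0.997), MSTRG.51067.2 (0.994) and MSTRG.24095.1 (0.993). All 9 were lower in LPS_ES_PMMA, by log2 fold changes from -7.82 for NONMMUT032074.2, which held no reads there, to -0.85 for MSTRG.24095.1. The fitted value of NONMMUT032074.2 depends on edgeR's prior count and is no bound.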

How the data were processed

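RNA of 6 libraries was sequenced, 3 per group, and groups come from the sample titles. The deposited table holds, per the file headers, the authors' whole-number counts per lncRNA transcript, without normalization, and their FPKM values. The authors' log2 fold change equals the ratio of group mean FPKM. Each deposited p-value and q-value is the authors', by edgeR as the deposited file is named. The build mm10 is given in the submitters' processing notes; the aligner, the counter and whether strand was used were not given in the sources used here. Antisense and overlapping features may therefore share reads.

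Features were kept by filterByExpr (minimum count 10, minimum total 15), scaled by TMM and compared with the edgeR 4.0.16 quasi-likelihood test in R 4.3.3, without covariates. Benjamini-Hochberg adjustment ran over 8873 features, with a threshold of 0.05. The approximate SE divides the absolute log2 fold change by the root of the F statistic. The common biological coefficient of variation was 0.415. On simulated counts for this comparison (7661 features), 66% of features changed by 2 and 100% of those changed by 4 on the log2 scale were recovered, with 6 false calls. Every simulated feature had the common coefficient of variation, and changes were placed only in features with higher counts. Recovery at low counts, and false calls where spread differs between features, were therefore not measured. Replicate pairs differed beyond sampling noise (chi-square per degree of freedom 15.4 to 45.5). Alternatives used DESeq2 1.42.0, limma 3.58.1 on log2(FPKM + 0.1) and log2(FPKM + 1), 2 other scalings, 2 other filters, a robust fit, a replicate block and fits without each library.

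The members and lists were chosen with earlier results of these data known. Named are the 3 features; features within 250 kb that passed, and the 3 nearest tested; features of the PARP list that passed, and the 5 most abundant tested; those of the interferon list that passed, and its 3 most abundant; and for each described feature the 3 with the highest r. MSTRG.22344.1, NONMMUT123623.1, NONMMUT123662.1, NONMMUT132744.1, NONMMUT020285.2 and the 3 macrophage features were named after their values were seen. Shifts of assembled transcripts were searched up to 1000000 bp in stretches of 10 Mb, after positions had been seen not to match. No molecular identifiers are recorded, so the level of 3 counts covers counting error only.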

Additional observations from a re-analysis of the deposited data

How the results depend on the processing

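No log2 fold change of the 3 features changed sign under the alternatives run. The log2 fold change of NONMMUT026427.2 was -2.92 with column totals, -3.05 with limma on log2(FPKM + 0.1) and -1.84 on log2(FPKM + 1), where the added constant shrinks low features. That of NONMMUT026433.2 was -0.41 with column totals, -0.74 with totals implied by FPKM, and -0.70 and -0.64 with limma at the smaller and the larger constant. That of NONMMUT056500.2 was -1.93, -2.30, -2.29 and -2.25 in the same order. Without a library they ranged from -4.06 to -3.35, from -1.34 to -1.05 and from -2.85 to -2.66.

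The 422 calls over all features became 174 without a filter, 192 with the filter on mean FPKM, and 50 to 136 without a library. Column totals gave 301 higher and 68 lower, totals implied by FPKM 230 and 94, and limma 207 and 90 or 415 and 133, against 193 and 229. The 2 calls near the described features became 0 with column totals and 1 with totals implied by FPKM, without a filter, with the filter on mean FPKM and with limma on log2(FPKM + 0.1); without a library they were 0 to 1. The 3 calls of the PARP family became 0 with column totals and 1 with totals implied by FPKM, without a filter and with limma on log2(FPKM + 0.1); without a library they were 0 to 2. The 2 calls without LPS_PMMA 1 were 1 higher and 1 lower, as were the 2 with limma on log2(FPKM + 1), whereas every call in the other settings was lower. The 7 interferon calls were 2 to 6 without a library. Fits without a library have fewer samples; otherwise the cause was not tested.

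Same-numbered libraries did not deviate together (r = -0.02, -0.025 and -0.093 for numbers 1, 2 and 3), and no library correlated best with its own number. The labels do not say whether the numbers pair libraries, and deviations within groups of 3 cannot settle it. With a replicate block 41 features passed in all, 0 near the described features, 0 of the PARP family and 2 of the interferon list. At 5 to 7 counts per LPS_ES_PMMA library, depth limits how closely the level of NONMMUT026427.2 there is known.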
